A study of Saccharomyces cerevisiae with 3 samples.

Results

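The genes described here make the programmed DNA double-strand breaks that start meiotic recombination. They are *SPO11* (YHL022C, chromosome VIII), *REC102* (YLR329W, chromosome XII), *REC104* (YHR157W, chromosome VIII), *REC114* (YMR133W, chromosome XIII), *MEI4* (YER044C-A, chromosome V) and *MER2* (YJR021C, chromosome X, named *REC107* in the annotation), whose known work is in meiosis, and *SKI8* (YGL213C, chromosome VII), *MRE11* (YMR224C, chromosome XIII), *RAD50* (YNL250W, chromosome XIV) and *XRS2* (YDR369C, chromosome IV), whose products also act in mitotic cells. These 10 genes of the 6218 on the arrays were chosen by symbol from known function and found by their systematic names in the spot lists of the arrays. None of the 10 overlaps another gene in the R64 annotation. Expression was measured in Δ*sum1* diploids (strain JPY214, SK1 background), which lack the Sum1 repressor of mid-sporulation genes, at 6 hours in SPM, the sporulation medium with acetate, and then 20 and 40 minutes after part of that culture had been moved to YPD, the growth medium with glucose. Each time point is 1 array with Cy5-labeled Δ*sum1* cDNA, and the Cy3 channel of all 3 arrays holds the same RNA of wild-type SK1 diploids (NKY1551) that were growing in YPA, where acetate is the carbon source. A ratio on an array therefore compares cells that differ in genotype and in medium, whose parts cannot be told apart, and a change between arrays compares times within the Δ*sum1* culture, where the move to YPD and the time that passed cannot be told apart. No wild-type sporulating culture was analysed here.

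In budding yeast, Spo11 cuts DNA by a reaction related to that of topoisomerases. It works in a core complex with Rec102, Rec104 and Ski8, the last of which is also a subunit of the Ski complex of cytoplasmic mRNA decay. Rec114, Mei4 and Mer2 form a second group that ties the break machinery to the chromosome axis. The Mre11-Rad50-Xrs2 complex is needed both to form the breaks and to process their ends, and in mitotic cells it acts in DNA repair and at telomeres. Breaks are made in meiotic prophase, before the first division.

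Signals are spot intensities after background subtraction, and a ratio is log2 of Cy5 over Cy3 minus the median of the array, averaged over the 2 adjacent spots of a gene. Signals under a floor were set to that floor, which on the arrays of 6 hours, 20 minutes and 40 minutes was 656, 397 and 268 for Cy5, and 690, 574 and 455 for Cy3. Each floor held 5.07% to 5.24% of the gene spots. Over all gene spots the Cy5 signal had a median of 4280, 2748 and 1616 and the Cy3 signal one of 3939, 3399 and 2811, so raw signals shift between arrays and only ratios or centered signals are compared across them. All errors are the SD of the 2 spots, which share 1 RNA sample, 1 labeling and 1 slide. With 1 array per time point no test can be made, and genes are classed by fold limits, 2-fold for a ratio against the reference and 1.5-fold for a change between times. Levels of different genes are not compared, since the length of each spotted product is not known here. In a bulk culture, fewer cells of a kind and less RNA per cell cannot be told apart.

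Sporulation genes, taken as markers, were high in the Δ*sum1* samples. Sum1 represses mid-sporulation genes, so the loss of Sum1 and sporulation cannot be told apart in these ratios. All 6 marker genes were 2-fold or more above the reference at each time, with log2 ratios between 1.73 and 6.08 at 6 hours, 2.96 and 6.52 at 20 minutes and 4.5 and 7.02 at 40 minutes. The lowest at each time was *DIT1* (named after its values were seen), which the paper counts among genes induced in late meiosis. Without it the lowest log2 ratio at 6 hours was 4.55. Both channels are taken to hold diploid cells. Of 9 haploid or mating-type genes, 3 were 2-fold or more above the reference at 6 hours (-0.73 to 2.39 over the list). At 20 minutes 3 were so (-1.02 to 3.93), and at 40 minutes 5 (-1.15 to 3.89). Over all genes with a value the shares were 22%, 28.6% and 27.1%. Of the 9, 1 was under both floors at 6 hours and 20 minutes, and 1 was 2-fold or more below the reference at 20 and at 40 minutes. The part of the haploid or mating-type genes in the results below was not tested. *SUM1* itself had log2 ratios of -1.76 ± 0.07, -1.37 ± 0.01 and -1.64 ± 0.16, below the reference in each spot but above the Cy5 floor.

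At 6 hours in SPM, 5 of the 6 meiosis-specific genes were 2-fold or more above the growing reference and the sixth gave no value, whereas 1 of the 4 genes also used in mitosis was above that limit. Over all 6090 genes with a value, 22% were 2-fold or more above the reference and 18.2% 2-fold or more below it. The median log2 ratio was 3.07 for the meiosis-specific genes (range 1.02 to 3.61, n = 5), 0.42 for the shared genes (range -0.75 to 1.04, n = 4) and -0.00 for all genes. The ranges of the classes overlapped at this time, since *MER2* had a ratio of 1.02 and *SKI8* one of 1.04, and with loess normalization both were just under 2-fold (0.99 and 0.98). After the transfer to YPD all 9 measured genes were 1.5-fold or more lower at both times, where 39.4% of all genes were so at 20 minutes and 42.5% at 40 minutes. With the mean of the buffer spots as the floor, *XRS2* was not past the limit at 20 minutes, nor were *MRE11*, *RAD50* and *XRS2* at 40 minutes. The measured change was larger in each of the 5 meiosis-specific genes than in any of the 4 shared ones. *MRE11*, *RAD50* and *XRS2*, however, began closer to the floor, which limits the decrease that can be seen.

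*SPO11* codes for the protein that cuts the DNA. Its 2 spots had Cy5 signals of 8003 and 8080 at 6 hours in SPM, 374 and 260 after 20 minutes and 167 and 209 after 40 minutes in YPD. In the reference its Cy3 signals were 753 and 556 on the first array, 650 and 641 on the second and 483 and 382 on the third. The Δ*sum1* cells thus showed a bright *SPO11* signal in SPM and, in YPD, a signal under the floor in every spot, while the growing reference lay close to its own floor on each array. The log2 ratio was 3.55 ± 0.10, 11.7-fold above the reference with these floors, and 1 of the Cy3 spots was under its floor. With the mean of the buffer spots as the floor, which the study's supplement names, it was 2.14. After 20 minutes in YPD the ratio was -0.34 ± 0.01 and after 40 minutes -0.04 ± 0.06. Both set the Cy5 floor against Cy3 signals close to their own floor, so they do not give a level relative to the reference. Their SDs leave out the spread of the Cy5 spots. The change was -3.89 ± 0.09 at 20 minutes, 14.9-fold lower, and -3.60 ± 0.04 at 40 minutes, 12.1-fold lower. Both sizes rest on the floors, and with the buffer mean in their place they were -2.12 and -2.14.

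*REC102* and *REC104* code for the proteins that hold Spo11 in the core complex. No spot of *REC102* lay above a floor. Its Cy5 signals were 273 and 339 at 6 hours, 202 and 115 at 20 minutes and 108 and 222 at 40 minutes, against Cy3 signals of 389 and 371, 433 and 543, and 253 and 164. At 6 hours 91.5% of the 236 buffer spots of the array were brighter in Cy5 than the mean of its spots, so neither its presence nor its change could be measured. *REC104*, in contrast, gave Cy5 signals of 5836 and 5232 at 6 hours, 712 and 596 at 20 minutes and 364 and 357 at 40 minutes. Its Cy3 signals were 489 and 525, 509 and 463, and 333 and 282, under the floor on every array. *REC104* was thus bright in the Δ*sum1* cells in SPM and dim in YPD, where at 40 minutes 57.2% of the buffer spots were brighter in Cy5 than the mean of its spots. Its log2 ratio was 3.07 ± 0.11 at 6 hours (8.42-fold, or 1.60 on the log2 scale with the buffer mean as the floor), and 0.54 ± 0.18 and 0.43 ± 0.02 in YPD. Its change was -2.53 ± 0.07 at 20 minutes and -2.65 ± 0.09 at 40 minutes, and -2.45 and -2.53 in Cy5 alone, which does not rest on the reference.

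**Figure D1:**
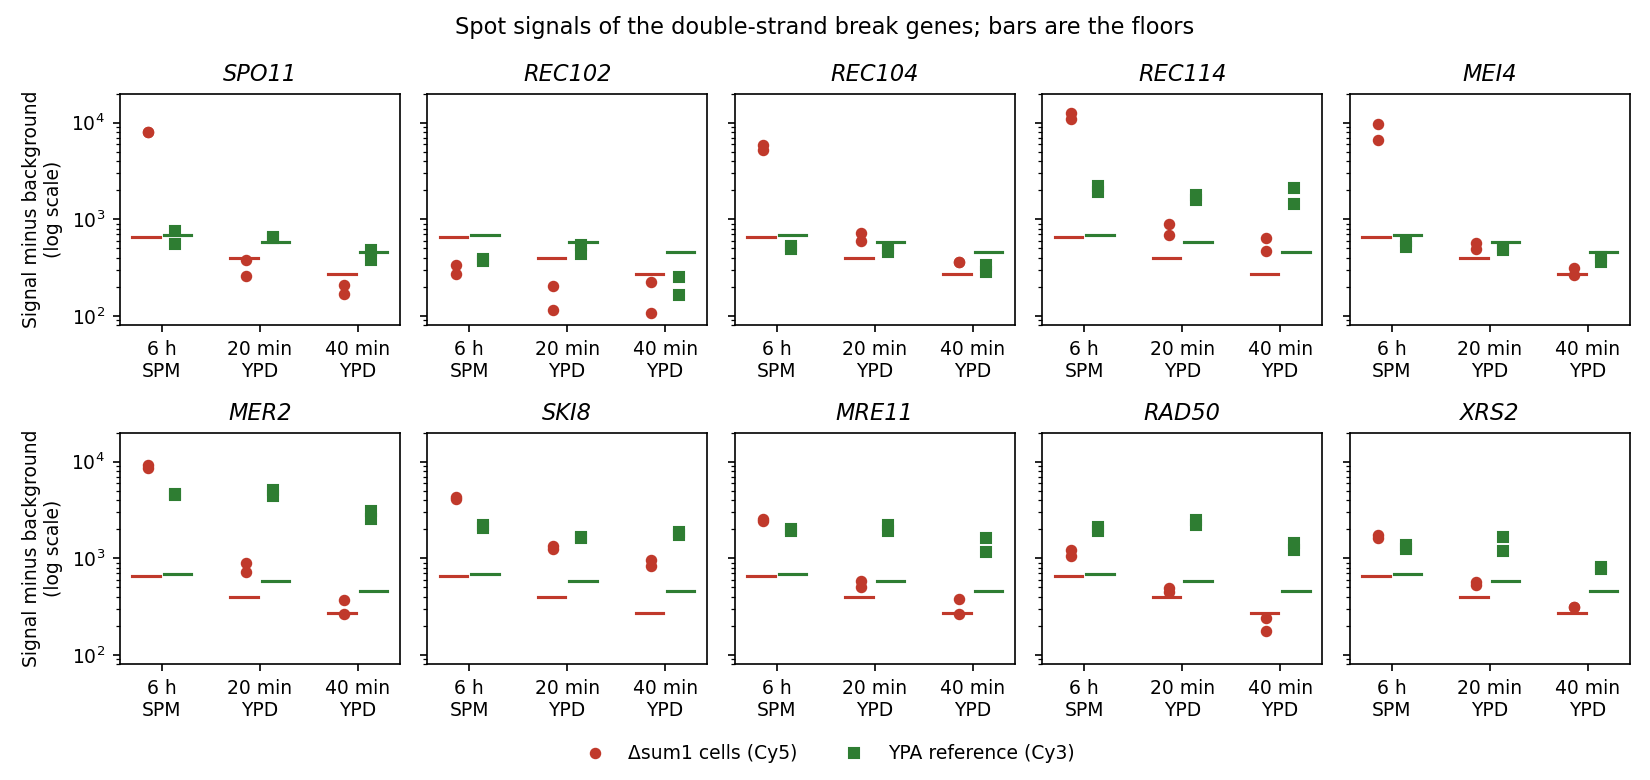
Background-subtracted spot signals (log scale) of the 10 double-strand break genes by time (6 hours in SPM, then 20 and 40 minutes in YPD), for Δ*sum1* cells (Cy5, circles) and the YPA reference (Cy3, squares), 2 spots each. Short bars are the floors of the channel; *REC102* lies under both floors on all 3 arrays, and *REC104* and *MEI4* lie under the Cy3 floor on all 3.

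*REC114*, *MEI4* and *MER2* code for the proteins of the axis-bound group. *REC114* was the one meiosis-specific gene with all spots above the floor in both channels on all arrays. Its Cy5 signals were 12715 and 10983 at 6 hours, 690 and 882 at 20 minutes and 471 and 634 at 40 minutes, and the reference gave 2202 and 1891, 1791 and 1562, and 1438 and 2107. The log2 ratio was 2.61 ± 0.01, then -0.74 ± 0.39 and -0.91 ± 0.09. In SPM the gene was 6.09-fold above the reference, and in YPD it was 1.67-fold and 1.88-fold below it. The changes were -3.35 ± 0.38 and -3.52 ± 0.09, 10.2-fold and 11.4-fold lower, and both are free of the floors.

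*MEI4* had Cy5 signals of 9694 and 6624 at 6 hours, 569 and 487 at 20 minutes and 264 and 310 at 40 minutes, 1 of the last pair under the floor. Its Cy3 signals were 515 and 597, 481 and 508, and 357 and 402, all under the floor. Like *REC104*, it was not seen above the floor in the growing reference. The log2 ratio of 3.61 ± 0.39 at 6 hours, 12.2-fold with these floors and 2.14 on the log2 scale with the buffer mean as the floor, was close to that of *SPO11* and within the difference between its own spots, which was wider than for the other genes at that time. Its change was -3.38 ± 0.23 at 20 minutes and -3.51 ± 0.54 at 40 minutes, or -3.29 and -3.39 in Cy5 alone.

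*MER2*, like *REC114*, had a signal above the floor in every spot of the growing reference. The Cy5 signals were 8655 and 9142 at 6 hours, 895 and 714 at 20 minutes and 267 and 366 at 40 minutes, 1 of the last pair under the floor. The Cy3 signals were 4546 and 4672, 5055 and 4434, and 2544 and 3091. Centered on the array median, its Cy3 signal averaged 0.23 ± 0.24 on the log2 scale (SD over 3 arrays of the same RNA). As background, *MER2* is transcribed in growing cells as well, and its intron is removed efficiently in meiosis with the help of Mer1 and Nam8. Whether these signals come from spliced or unspliced RNA was not tested. *MER2* was 2.03-fold above the reference at 6 hours (log2 ratio 1.02 ± 0.03), and 4.61-fold and 5.28-fold below it at 20 and 40 minutes (-2.20 ± 0.10 and -2.40 ± 0.12). With the mean of the buffer spots as the floor the ratios of *MER2* in YPD were -1.85 and -0.87, the second within 2-fold. Although its ratio at 6 hours was the smallest of the measured meiosis-specific genes, its changes of -3.23 ± 0.12 and -3.42 ± 0.09, 9.36-fold and 10.7-fold lower, were close to those of *REC114* and *MEI4*.

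*SKI8* had the highest ratio of the shared genes at each time. It gave Cy5 signals of 4264 and 4117 at 6 hours, 1346 and 1254 at 20 minutes and 953 and 827 at 40 minutes, against Cy3 signals of 2213 and 2076, 1675 and 1623, and 1884 and 1750. All its spots were above the floors. The log2 ratio was 1.04 ± 0.03 at 6 hours, 2.05-fold above the reference, then 0.02 ± 0.04 and -0.27 ± 0.07 in YPD, within 1.5-fold of it. The changes were -1.02 ± 0.07 and -1.31 ± 0.10, 2.03-fold and 2.48-fold lower.

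*MRE11*, *RAD50* and *XRS2* code for the 3 subunits of the complex that acts at the break ends, and none of them was 2-fold above or below the reference at 6 hours. *MRE11*, the nuclease subunit, had Cy5 signals of 2436 and 2525, 506 and 576, and 374 and 263 at 6 hours, 20 minutes and 40 minutes, the last value under the floor, against Cy3 signals of 1927 and 2026, 2187 and 1904, and 1602 and 1171. Its log2 ratio was 0.40 ± 0.01, -1.56 ± 0.27 and -1.35 ± 0.02. Of the shared genes it showed the strongest decrease, with changes of -1.96 ± 0.29 at 20 minutes and -1.75 at 40 minutes, 3.89-fold and 3.37-fold lower.

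*RAD50*, the ATPase subunit, had Cy5 signals of 1229 and 1051, 442 and 488, and 241 and 175, both of the last under the floor. Its Cy3 signals were 2110 and 1915, 2504 and 2222, and 1429 and 1204. It was below the reference at each time, with log2 ratios of -0.75 ± 0.06, -1.98 ± 0.22 and -1.53 ± 0.17. The changes were -1.23 ± 0.28 at 20 minutes, 2.35-fold lower, and -0.78 ± 0.23 at 40 minutes, 1.72-fold lower, while Cy5 alone gave 1.57-fold and 1.60-fold. The reference signal of *RAD50* varied by 0.30 (SD over the 3 arrays), the most among the 10 genes. Its call at 40 minutes depended on the setting: the change was 0.14 with the mean of the buffer spots as the floor, and it was within 1.5-fold in 3 of the 11 settings that gave a value.

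*XRS2*, the subunit that brings the complex to the nucleus, had Cy5 signals of 1636 and 1718, 524 and 569, and 314 and 315, against Cy3 signals of 1243 and 1363, 1662 and 1197, and 806 and 778. All were above the floors, the later Cy5 signals by less than 1.5-fold. The log2 ratio was 0.44 ± 0.04, -1.01 ± 0.42 and -0.57 ± 0.04, and the changes of -1.45 ± 0.46 and -1.01 ± 0.08 were 2.73-fold and 2.01-fold lower. With the mean of the buffer spots as the floor its changes were -0.05 and 0.11, and that of *MRE11* at 40 minutes was -0.48, all within 1.5-fold.

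**Figure D2:**
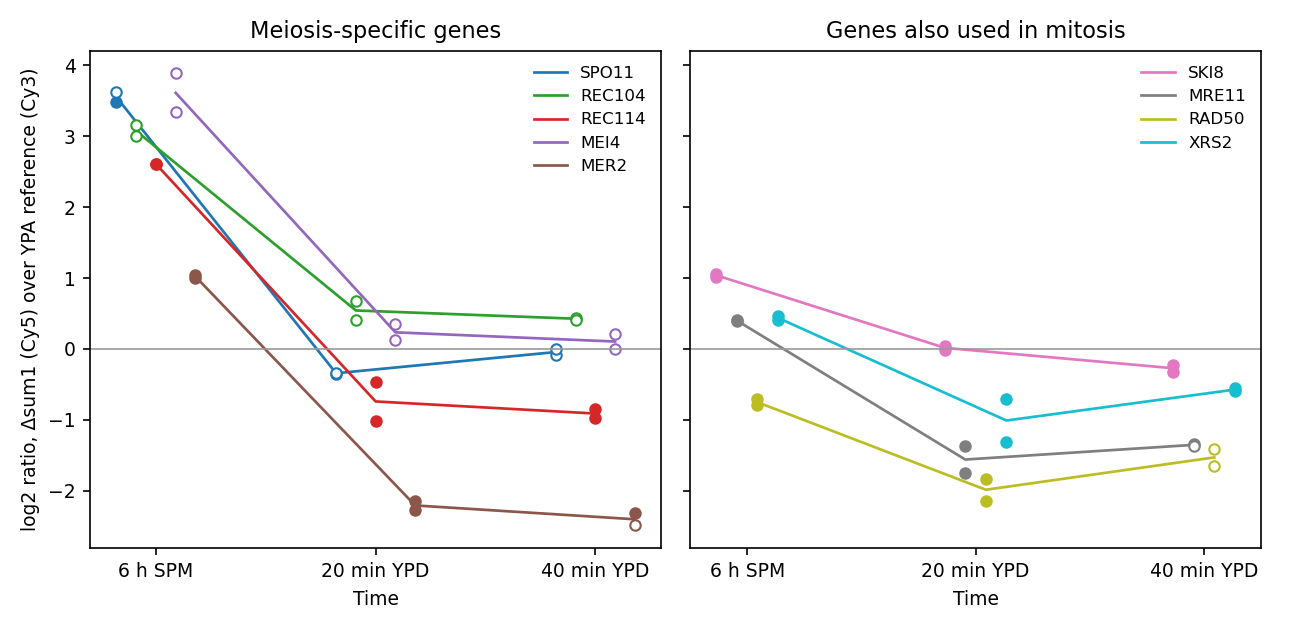
Log2 ratio of Δ*sum1* cells (Cy5) over the YPA reference (Cy3) for the 9 double-strand break genes with a value, by time. Points are the 2 spots (open where a channel is under its floor), lines join their means; the meiosis-specific genes at left start between 1.02 and 3.61 and the shared genes at right between -0.75 and 1.04.

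Set side by side, the meiosis-specific genes showed larger measured decreases than the shared ones. At 6 hours the mean Cy5 signals of *RAD50*, *XRS2* and *MRE11* were 1.74, 2.56 and 3.78 times the floor. Those of the 5 meiosis-specific genes were 8.4 to 18.1 times the floor. A decrease in Cy5 as large as theirs could not have been seen in *RAD50*, *XRS2* or *MRE11*. *SKI8*, at 6.39 times the floor, stayed above it in YPD. At 20 minutes the 5 meiosis-specific genes were 5.78-fold to 14.9-fold lower than at 6 hours (median change -3.35) and the 4 shared genes 2.03-fold to 3.89-fold lower (median -1.34), while over 6140 genes 39.4% fell 1.5-fold or more and 26.5% rose as much, with a median change of -0.27. At 40 minutes the ranges were 6.27-fold to 12.1-fold (median -3.51) and 1.72-fold to 3.37-fold (median -1.16), against 42.5% of 6150 genes lower and 27.2% higher and a median of -0.33. The shared genes' count of 4 of 4 stands beside a background in which such a decrease was common. Of the 1338 genes induced 2-fold or more at 6 hours, 53.4% were lower at 20 minutes (median -0.68) and 63.8% at 40 minutes (median -0.95). The smallest change of a meiosis-specific gene, that of *REC104*, and the largest of a shared gene, that of *MRE11*, were -2.53 and -1.96 at 20 minutes. Against which error this gap should be held is not known, as no culture was repeated. In Cy5 alone, without the reference, the classes had median changes of -3.28 and -1.02 at 20 minutes and -3.39 and -0.92 at 40 minutes. Their ranges did not meet, but the limit set by the low starting signals of *RAD50*, *XRS2* and *MRE11* holds here too. With the median of the buffer spots as the floor the order turned at 20 minutes, with -1.96 for *REC104* and -2.03 for *MRE11*. The floor set the size of the changes of dim genes: with the mean of the buffer spots as the floor, *SPO11* changed by -2.12 at 20 minutes and -2.14 at 40 minutes, *MEI4* by -2.12 and -2.14, *REC104* by -1.58 and -1.60 and *MER2* by -3.09 and -2.11, whereas *REC114* changed by -3.05 and -2.93. No test of the difference between the classes was made, since the genes are not replicates.

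**Figure D3:**
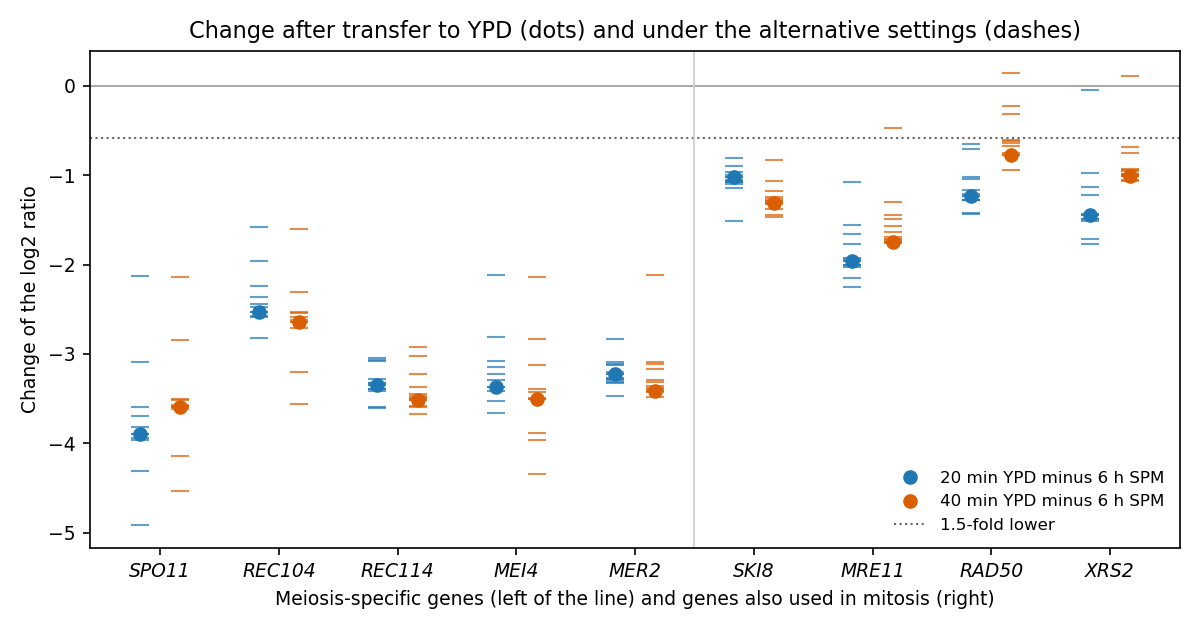
Change of the log2 ratio of the 9 measured genes from 6 hours in SPM to 20 minutes (blue) and 40 minutes (orange) in YPD, as dots, with the values under the alternative settings as dashes. The meiosis-specific genes at left changed by -3.89 to -2.53 at 20 minutes and the shared genes at right by -1.96 to -1.02; the dashes of *MRE11*, *RAD50* and *XRS2* above the dotted 1.5-fold line come from other floors or background corrections.

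The decrease was present at 20 minutes. Between 20 and 40 minutes none of the 9 genes changed by 1.5-fold, whereas 12.3% of 6152 genes were lower and 7.96% higher. The median change in that interval was -0.13 for the meiosis-specific genes (range -0.19 to 0.30) and 0.32 for the shared genes (range -0.29 to 0.46). Other settings moved some genes past the limit, with -0.84 for *REC104* and -0.82 for *MEI4* under normexp and loess, -0.59 for *MER2* in Cy5 alone and 0.98 for *MER2* with the buffer mean as the floor. The median of the shared genes became 0.64 with normexp, 0.66 with normexp and loess and 0.71 with the buffer median as the floor, all past the limit, and *RAD50* reached 1.05 and *XRS2* 0.83 in the last of these. In YPD the meiosis-specific genes lay at a median log2 ratio of -0.34 at 20 minutes and -0.04 at 40 minutes, with 0 of 5 past the 2-fold limit above the reference, against 28.6% and 27.1% of all genes, and 1 of 5, *MER2*, 2-fold or more below it, against 25.8% and 27.1%. With the floors used here the shared genes lay lower, at a median of -1.28 and -0.96. Of them 3 of 4 and 2 of 4 were 2-fold or more below the reference, *XRS2* only just at 20 minutes (-1.01). Both meiosis-specific medians are the values of *SPO11*, whose Cy5 was under the floor. With spots under the floor left out the order turned. The medians were then -1.52 and -1.59 for *REC114* and *MER2* alone, and -1.33 and -0.55 for the shared genes. With the mean of the buffer spots as the floor *MER2* was within 2-fold at 40 minutes (-0.87). The count of 0 of 5 above the reference at 20 minutes also depended on the setting. *REC104* was more than 2-fold above it with normexp (1.02) and with normexp and loess (1.36), and *MEI4* with normexp and loess (1.02). By 40 minutes Cy5 was under the floor in 1 or both spots of 6 of the 10 genes, so a further decrease of *SPO11*, *RAD50*, *MEI4*, *MER2* or *MRE11* was not detectable at these signals.

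The other genes of the break pathway were taken as 9 lists of known function, 43 genes in all. *REC8* was under both floors at 20 minutes and stands there at the floors (it is named for this reason, after its values were seen). At 20 minutes 28 had fallen 1.5-fold or more since 6 hours and 4 had risen (median change -1.01), against 39.4% and 26.5% of all genes. At 40 minutes 30 were lower and 4 higher (median -1.15), against 42.5% and 27.2%, and the counts of the lists below stand beside the same shares. In Cy5 alone 23 of the 43 were lower at 20 minutes and 27 at 40 minutes. Each list is named below with its members of lowest and highest mean change.

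The genes of the meiotic chromosome axis, on which the breaks are made, were lower together. All 5 were 2-fold or more above the reference at 6 hours (median log2 ratio 3.0), and all 5 were lower at both times, with median changes of -3.17 and -3.33. Both medians are the values of *REC8*, the meiotic cohesin, and without it the median at 20 minutes was -3.16 over 4 genes that lie far apart. *MEK1*, the axis-bound kinase that directs repair to the homolog, changed by -5.20 and -5.25, and *RED1*, an axis protein, by -1.29 and -0.97. The 5 genes of the kinases and cyclins that phosphorylate Mer2 were also all 2-fold or more above the reference at 6 hours and all lower in YPD, though less strongly, with median changes of -1.33 and -1.93. *CDC7*, the replication kinase, changed by -1.86 and -2.0, and *CDC28*, the cyclin-dependent kinase, by -0.84 and -1.53. In Cy5 alone at 20 minutes *CDC28* changed by -0.53 and another gene of this list by -0.26, both within 1.5-fold.

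Of the genes of *MER2* splicing, *NAM8*, which codes for an RNA-binding protein of the U1 particle, changed by -2.25 and -2.61, whereas *MER1*, the meiotic splicing activator, changed by 0.24 at 20 minutes and was higher by 0.59 at 40 minutes, just past the limit. Their log2 ratios at 6 hours were 0.36 and 0.54, so at that time neither was 2-fold above the reference. The 4 genes of break end processing, whose products trim the ends that the Mre11 complex opens, were all 2-fold or more above the reference at 6 hours and all lower in YPD (medians -1.43 and -1.86). *DNA2*, a nuclease and helicase, changed by -1.72 and -2.41, and *SAE2*, the cofactor of Mre11, by -1.56 and -1.27.

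The 8 genes that sense breaks and signal to the checkpoint were divided. At both times 5 were lower and 2 higher (medians -1.0 and -0.87). *MEC3*, a subunit of the checkpoint clamp, changed by -1.99 and -2.57, and *TEL1*, the checkpoint kinase recruited through Xrs2, by 2.36 and 2.46. *TEL1* had a log2 ratio of -0.57 in SPM, and of 1.79 and 1.89 in YPD. Of the 5 genes of end joining, the repair route without a template, 4 were lower at 20 minutes and 3 at 40 minutes (medians -0.84 and -0.61), among them *NEJ1* (-0.79 and -1.94), while *YKU70*, a subunit of the Ku complex, changed by -0.05 and -0.58. Both Cy5 spots of *YKU70* were under the floor at 20 minutes, so a larger decrease could not be seen there. In Cy5 alone *YKU70* changed by -0.95 and -0.38, the first being the largest decrease of the 5 at 20 minutes.

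Of the 4 genes that methylate histone H3 near break sites or ubiquitinate histones before that step, at 20 minutes 0 fell and 1 rose, and at 40 minutes 1 fell and 0 rose (medians -0.12 and -0.35). *SET1*, the methyltransferase, changed by -0.20 and -1.15, and *BRE1*, a ubiquitin ligase, by 0.89 and 0.39. The remaining 3 genes of the Ski complex pathway, in which Ski8 works outside meiosis, had 1 lower gene at both times, *SKI7* (-0.95 and -0.95), while *SKI3* changed by 0.26 and -0.00 (list medians -0.34 and -0.40).

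Of the 7 regulators of early meiotic genes, at 20 minutes 3 fell and 1 rose, and at 40 minutes 5 fell and 1 rose (medians -0.53 and -0.90). *IME1*, the activator of early meiotic genes, had a log2 ratio of 0.20 at 6 hours, -4.91 at 20 minutes and -6.35 at 40 minutes, so its level was near that of the YPA reference in SPM and far below it in YPD. Its changes were -5.11 and -6.55. *RIM15*, a kinase of the starvation response, changed by 1.21 and 1.83.

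**Figure D4:**
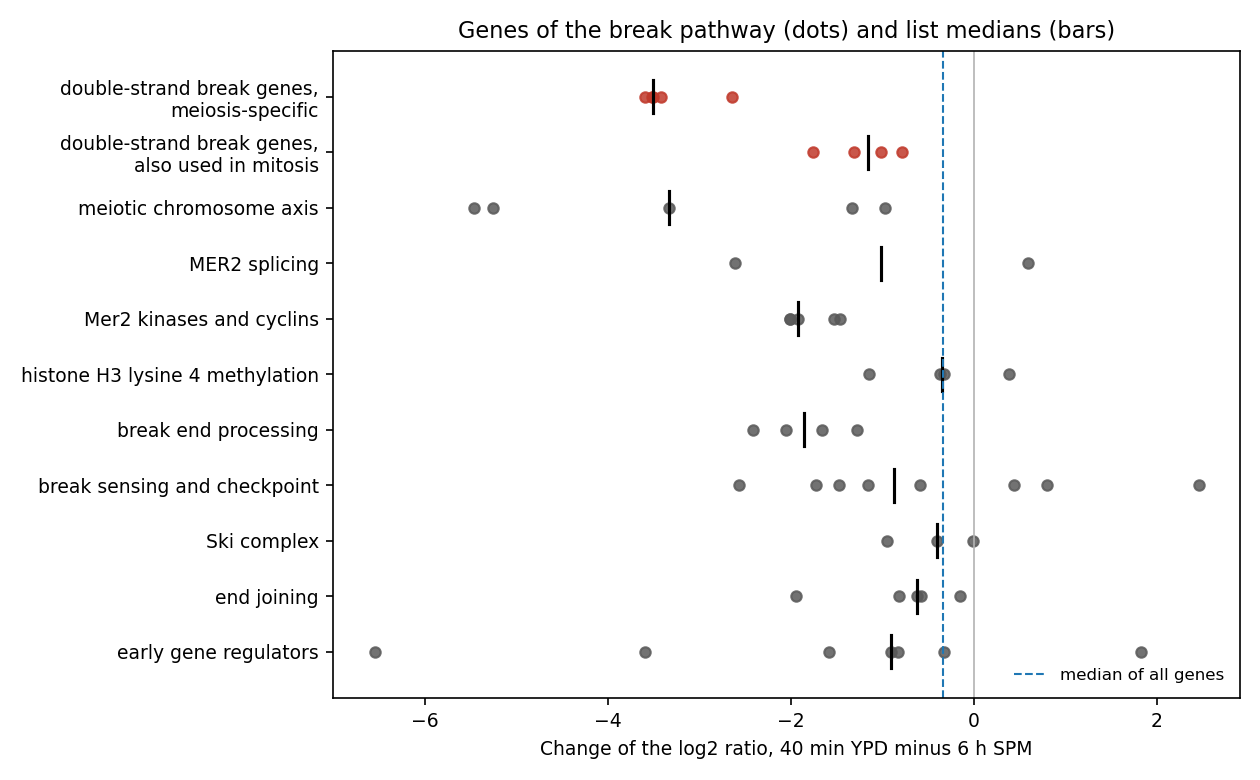
Change of the log2 ratio from 6 hours in SPM to 40 minutes in YPD for the 9 measured double-strand break genes (top 2 lines, red) and the 43 other genes of the pathway by list (gray); bars are the medians and the dashed line is the median of all genes, -0.33. The meiosis-specific break genes and the axis genes have medians of -3.51 and -3.33, the shared break genes one of -1.16.

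Among 5304 genes with every spot above the floor on all arrays, those nearest to *SPO11* over the 3 log2 ratios were *SPO16* (Euclidean distance 0.64), YKR070W (0.85) and *HFM1*, the gene of the Mer3 helicase (0.88). *SPO16* had ratios of 3.68, 0.29 and -0.11. Genes with any spot under a floor were not searched. Among them is *MEI4* (3.61, 0.23 and 0.11), which lies nearer to *SPO11* than *SPO16* does, so the genes named are nearest only within the search. This likeness rests on 3 arrays, and the *SPO11* ratios in YPD rest on the floors.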

How the data were processed

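RNA of Δ*sum1* cells (Cy5) and of the YPA reference (Cy3) was hybridized to 3 arrays of 2 colors. The labeling text of the samples names the dyes in the opposite order; the channel labels and scanner headers were followed. The authors deposited, for each spot, intensity and background quantified with QuantArray version 3 (per the file headers), and a table of log2 ratios after background subtraction, a floor, median centering, omission of bad spots and averaging. The deposited files also mark spots whose signal-to-noise ratio is under 3, which served 1 alternative.

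Here the background was subtracted from the intensities, dim signals were raised to a floor, the log2 ratio of Cy5 to Cy3 was centered on the median of the gene spots, and the 2 spots of a gene were averaged without omitting any. These floors were worked out from the deposited log2 ratios, because the mean of the buffer spots that the study's supplement names does not lead to those ratios. The values equaled the deposited ones within 0.001, after removal of a constant per array, for 97.9%, 98.4% and 98.0% of the genes compared. A gene with every spot under both floors has no value, and a change is unmeasured where that holds on both arrays. Fold changes of genes under a floor depend on it. The arithmetic was tested on simulated data. Each time point has 1 array, so no p-value is given and precision is limited by their number.

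The genes and lists were chosen with earlier results of these data known. The text names the 10 genes, *SUM1*, *DIT1* and *REC8*, with *DIT1* and *REC8* chosen after their values were seen. Also named are the lowest and highest gene by mean change of each of 9 lists. The 3 genes nearest to *SPO11* were sought among those with every spot above the floor. The lists are the chromosome axis, *MER2* splicing, Mer2 kinases and cyclins, histone H3 methylation, break end processing, break sensing, the Ski complex, end joining and early gene regulators. Names came from the R64 annotation (5663 of 6218 array genes matched), and no coordinates or sequences are given. Alternatives were normexp (limma 3.58.1, R 4.3.3, offset 50), loess, both, other floors, Cy5 alone, the deposited ratios, omission of spots and other fold limits. Python 3.11.15 with pandas 2.3.3 and numpy 2.4.6 was used.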

Additional observations from a re-analysis of the deposited data

How the results depend on the processing

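At 6 hours 5 meiosis-specific genes were 2-fold or more above the reference, and this number became 3 when spots under the floor or spots of low signal-to-noise ratio were left out. The 5 such genes lower at 20 minutes, and the 5 at 40 minutes, became 2 each in the same settings, because *SPO11*, *REC104* and *MEI4* then have no value in at least 1 array. With loess, the 1 shared gene past 2-fold became 0, since *SKI8* had a log2 ratio of 0.98, and *MER2*, one of the 5, had 0.99. With the mean of the buffer spots as the floor, the 4 shared genes lower at 40 minutes became 1, *SKI8*; *RAD50* then changed by 0.14, *XRS2* by 0.11 and *MRE11* by -0.48, and at 20 minutes *XRS2* changed by -0.05. The call of *RAD50* at 40 minutes was also lost with normexp and loess together and with the median of the buffer spots as the floor, which was chosen after seeing the data. Of the counts recomputed under an alternative, 73 were equal, 29 differed by no more than 1.5 times, among them the 28 and 30 lower pathway genes, which became 22 and 23 with a limit of 2-fold, and the 8 above differed by more. The median change of the meiosis-specific genes ranged from -3.60 to -2.12 at 20 minutes and from -3.59 to -2.14 at 40 minutes, and was past 1.5-fold in all 13 settings at both times. That of the shared genes ranged from -1.59 to -0.89 and from -1.29 to -0.18. The classes' ranges of change were apart in 12 of 13 settings at 20 minutes and in 13 of 13 at 40 minutes. These counts do not remove the limit that *MRE11*, *RAD50* and *XRS2* began too close to the floor to show a larger decrease in Cy5. The median change of all genes was -0.52 and -0.50 with the buffer mean as the floor, and -0.15 and -0.06 in Cy5 alone. No paired analysis was possible because each time point has 1 array.

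The limits are those of dim spots and single arrays. In YPD the Cy5 signals of most of these genes lie within 2-fold of the floor, and the buffer spots are of like brightness: at 40 minutes 92.8% of them were brighter than the mean of the *SPO11* spots and 66.5% than that of the *XRS2* spots. The changes of *SPO11* rest on the floors, and of the meiosis-specific genes *REC114* alone had every spot above both floors.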
